A study of Mus musculus with 18 samples.

Results

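The BCL2 family decides whether the outer mitochondrial membrane is opened during apoptosis, and 10 of its genes were described here across 18 expression arrays of mouse embryonic stem (ES) cells. They are Bcl2l11, which encodes BIM, the other BH3-only genes Bid, Bad, Bbc3 (PUMA) and Pmaip1 (NOXA), the effectors Bax and Bak1, and the anti-apoptotic genes Bcl2, Bcl2l1 (BCL-XL) and Mcl1. The members were picked by symbol, with results of these arrays already known, so their differences and p-values are given as a description. Of the 45101 probe sets in the deposited table, 29 carry 1 of these symbols and belong to 9 genes. Bax had no probe set of its own in the annotation used here and has no value. Of the 18194 genes with a probe set, 11388 reached 100 signal units on at least 2 of 16 arrays and were tested, and 8 members are among them. Bcl2 did not pass that filter.

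Anti-apoptotic proteins hold the effectors BAX and BAK in check, and BH3-only proteins, BIM among them, bind the anti-apoptotic proteins and release or activate the effectors. Once BAX and BAK open the membrane, cytochrome c leaves and the APAF1 apoptosome activates caspases. The FOXO transcription factors are known activators of Bcl2l11 and Bbc3, and retinoic acid, a derivative of vitamin A, is known to set off differentiation and some cell death in ES cell cultures.

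The cells were of the AB1 line, wild type (Wt) or CYP26A1-/-. The latter, named knockout below, lack intact copies of Cyp26a1, the gene of a P450 enzyme that oxidises retinoic acid (RA). In each genotype, 3 arrays held control cells at 8 h, 3 held cells given 100 nM RA for 8 h, and 2 held cells given 100 nM RA for 72 h, with the cytokine LIF in the medium of all of them. A single control array per genotype was labelled as 8 h without LIF. The sources used here do not say whether a genotype was 1 clone or whether repeats came from separate cultures, so p-values measure only how these arrays varied, which may be technical. Every RA comparison used the 8 h controls, so at 72 h the effect of RA and that of time in culture cannot be told apart, and the 8 h and 72 h comparisons of a genotype share their control arrays.

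Values are linear MAS5 signal in units, with array medians of 54.4 to 75.6 units. Differences are log2 differences ± standard error (SE), with two-sided limma p-values adjusted over all 11388 genes, and a gene is called "risen", "fallen" or "changed" only when that adjusted p is under 0.05. The number of arrays limits the precision. In wild type, Cyp26a1 read 57.9 ± 35.5 units (SD, n = 3) in controls, 1008 ± 596 at 8 h and 3307 ± 136 (n = 2) at 72 h of RA. Knockout readings were 28.6 ± 21.9, 201 ± 13.5 and 2974 ± 143 units. A probe set signal was thus present in the knockout after RA, and where this probe set lies relative to the disrupted sequence is not given in the sources used here. Stra8, an RA-induced gene, read 144 ± 50.5 units in wild-type and 151 ± 6.21 in knockout controls and 2642 ± 851 and 1768 ± 486 units after 8 h of RA. The ES cell markers Pou5f1, Nanog, Sox2, Zfp42, Esrrb and Dppa5a were present on every array, with a summed signal of 74155 to 104770 units. The sum was lower at 72 h of RA, at 74155 to 80610 units in wild type against 84829 to 93808 in controls. In the knockout it was 92242 to 96118 against 97300 to 102700 units. Not all markers were lower at 72 h. Nanog was higher in wild type (8299 and 7937 against 5205 to 7863 units) and Dppa5a in the knockout (37713 and 38308 against 34461 to 37348).

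The LIF labels of replicate 1 went against the LIF-induced gene Socs3 in both genotypes. On the control arrays labelled as holding LIF, its signal was 367 units (wild type) and 215 units (knockout), against 3800 and 4551 units on the arrays labelled without LIF and 2628 to 6001 units on the other 14. Some results that rest on the control arrays are therefore also given with the LIF labels of replicate 1 exchanged within each genotype. Some are also given without the replicate 1 control arrays, an alternative added after the data had been seen. The separate fits of all probe sets were not run in these ways.

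Promoter windows show where Bim and the other members start and which short motifs lie there. RefSeq windows of assembly GRCm38.p6, from 250 bases before to 50 bases after an annotated start, were matched by symbol for 9 members, all but Pmaip1, 15 windows in all. Both strands were searched for the FOXO core GTAAACA, the hexamer AGGTCA to which RA receptors bind, the AP-1 motif TGANTCA and the STAT motif TTCNNNGAA, which do not contain one another. Among all 32851 windows of this length, 3.65% held the FOXO core, 16.3% the RA receptor hexamer, 7.81% AP-1 and 8.3% STAT. The FOXO core was found in 2 member windows, a Bcl2l11 window at -227 to -221 from the start and a Bbc3 window at -167 to -161, where it reads TGTTTAC because it lies on the minus strand. The RA receptor hexamer was found in 1 window, of Bcl2l1, at -104 to -99 on the minus strand, and AP-1 and STAT in 0 of 15. These matches are letters in a window and not evidence of binding. Both annotated Bcl2l11 starts are printed because Bim is the gene described at most length, and the Bbc3 window because it is the other one with a FOXO core, which is in capitals. All 3 windows lie on the plus strand and run 5′ to 3′, at chr2:128125788-128126087, chr2:128127325-128127624 and chr7:16310011-16310310 in this order.
Bcl2l11, first start: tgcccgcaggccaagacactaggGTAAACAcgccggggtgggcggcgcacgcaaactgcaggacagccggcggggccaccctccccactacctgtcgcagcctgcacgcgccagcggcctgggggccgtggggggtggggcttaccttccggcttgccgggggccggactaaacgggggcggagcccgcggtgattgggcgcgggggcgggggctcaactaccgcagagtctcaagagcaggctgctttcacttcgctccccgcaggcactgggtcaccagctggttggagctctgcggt
Bcl2l11, second start: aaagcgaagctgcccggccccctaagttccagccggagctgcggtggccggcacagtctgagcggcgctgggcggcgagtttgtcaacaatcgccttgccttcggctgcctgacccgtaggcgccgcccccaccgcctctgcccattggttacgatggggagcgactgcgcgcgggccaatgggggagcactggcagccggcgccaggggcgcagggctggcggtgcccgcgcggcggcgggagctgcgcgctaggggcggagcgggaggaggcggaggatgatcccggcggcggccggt
Bbc3, second of 3 starts: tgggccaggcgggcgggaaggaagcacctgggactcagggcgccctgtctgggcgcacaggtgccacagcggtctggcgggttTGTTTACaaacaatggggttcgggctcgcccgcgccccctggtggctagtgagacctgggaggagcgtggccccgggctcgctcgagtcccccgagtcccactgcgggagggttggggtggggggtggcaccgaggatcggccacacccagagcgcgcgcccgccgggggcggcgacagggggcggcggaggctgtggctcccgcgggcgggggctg

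Bim signal was higher on every RA array at 8 h than on every control array of the same genotype, and it was higher in knockout than in wild-type controls, but in no comparison did it pass the threshold over all genes. Bcl2l11, on chromosome 2, was measured by 5 probe sets, and the brightest of them on average stands for the gene. In wild type it read 580, 606 and 598 units in controls and 750, 1254 and 1257 units after 8 h of RA. The groups did not overlap, and replicate 1 was the lowest of the RA arrays. The difference was 0.83 ± 0.26, or 1.78-fold. In the knockout it read 841, 774 and 984 units in controls and 985, 1079 and 1882 units after 8 h of RA. The highest control and the lowest RA array were nearly level here, and 1 RA array stood far above the others. The knockout difference was 0.55 ± 0.26, or 1.46-fold, and it lay between 0.26, without replicate 3 of the 8 h arrays (the 1882 units), and 0.73 when each array was left out in turn.

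With the LIF labels exchanged the 8 h difference of Bim was 1.11 in wild type and 0.92 in the knockout, and without the replicate 1 controls it was 0.81 and 0.53. The knockout response minus the wild-type response was -0.28 ± 0.37, with a 95% interval from -1.06 to 0.50, so a genotype difference in either direction could not be resolved.

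At 72 h of RA the wild-type arrays read 676 and 724 units, both above the 3 controls, with a difference of 0.24 ± 0.29. The knockout arrays read 610 and 1099 units, 1 below and 1 above all controls, with a difference of -0.07 ± 0.29. The sign of the knockout value turned with the LIF labels exchanged, to 0.30, while the wild-type value was 0.51 under that setting. Bim therefore showed its highest group means at 8 h, 1087 ± 292 units (SD, n = 3) in wild type and 1315 ± 493 (n = 3) in the knockout, against 700 ± 33.4 (n = 2) and 854 ± 346 (n = 2) at 72 h.

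Between genotypes, control cells had a mean of 594 ± 13.6 units (wild type) and 867 ± 108 units (knockout; SD, n = 3 each). All 3 knockout controls were above all 3 wild-type controls, with a difference of 0.54 ± 0.26, or 1.45-fold, that was 0.44 with the LIF labels exchanged and 0.54 without the replicate 1 controls. After RA the genotypes overlapped on the brightest probe set, with differences of 0.25 ± 0.26 at 8 h and 0.23 ± 0.32 at 72 h.

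On the brightest probe set, the lowest Bim signals of the 18 arrays were those labelled without LIF, at 326 units (wild type) and 386 units (knockout). Their difference from the controls was -1.01 ± 0.14 in a separate fit of 8 arrays that also modelled genotype, or 0.50-fold. On the LIF labels as Socs3 would order them the difference was 0.29, and with the mean of all 5 probe sets in place of the brightest it was -0.41, so neither its size nor its sign held across these settings. On each of the other probe sets the lowest of the 18 arrays was a wild-type control, at 156, 363, 139 and 95.1 units. By group mean on the brightest probe set, the order began with the wild-type and knockout arrays without LIF. Wild-type controls, wild type at 72 h, knockout at 72 h and knockout controls followed, then wild type and knockout at 8 h. Among neighbours in that order, only the step from the arrays without LIF to wild-type controls and the step from those to wild type at 72 h were free of overlap between groups.

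The 5 Bim probe sets moved alike at 8 h and less so at 72 h. After 8 h of RA all 5 differences were above 0 in both genotypes, from 0.46 to 0.96 in wild type and from 0.43 to 0.69 in the knockout. In each genotype 4 of the 5 had no overlap between groups and were higher, against 5.10% of all probe sets in wild type and 5.98% in the knockout. At 72 h, 4 of 5 were above 0 in wild type and 1 of 5 in the knockout. The wild-type call was 1 probe set, the second brightest, against 11.1% of all probe sets called higher, and 2 of the 5 had no overlap, against 25.7%.

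That probe set read 580, 625 and 363 units in wild-type controls, 886, 1024 and 754 at 8 h and 875 and 829 at 72 h. Knockout arrays read 907, 711 and 780 units in controls, 984, 1081 and 1168 at 8 h and 1025 and 1012 at 72 h. Unlike the brightest probe set, its 72 h arrays were above all controls in both genotypes. They also lay within the range of the 8 h arrays in each genotype. The knockout controls were above the wild-type controls on 4 of the 5 probe sets without overlap, against 7.73% of all probe sets, and all 5 differences were above 0, from 0.30 to 0.64. After RA, 5 of 5 knockout minus wild-type differences were above 0 at 8 h and 4 of 5 at 72 h. The knockout was higher without overlap on 0 of 5 at 8 h, against 7.93% of all probe sets, and on 2 of 5 at 72 h, against 20.9%. The probe sets of 1 gene share the same RNA and are not replicates; across the 18 arrays their pairwise Pearson r ran from 0.51 to 0.87 over 10 pairs.

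**Figure D1:**
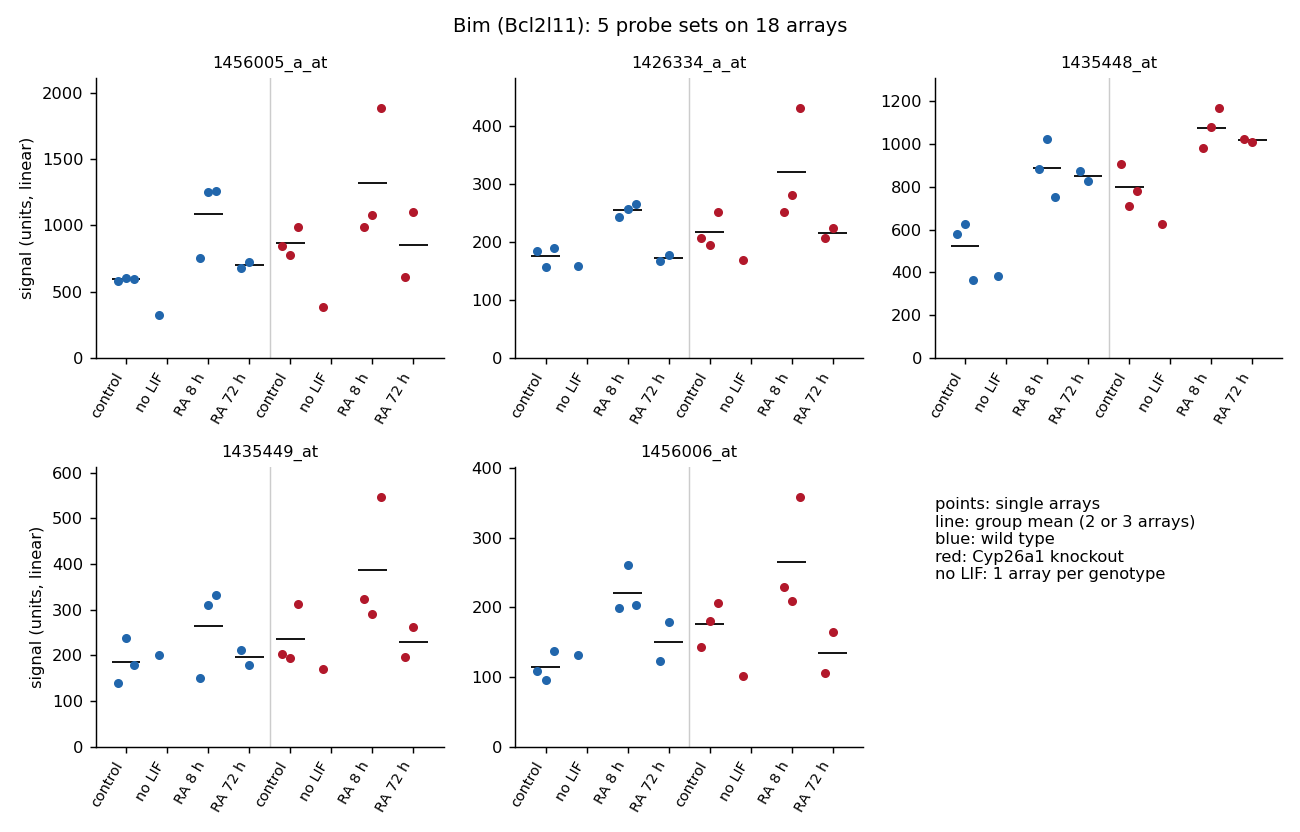
Signal of each of the 5 Bcl2l11 probe sets in linear units (y axis, starting at 0) by group (x axis), with 1 point per array, a line at the group mean, wild type in blue and knockout in red. In 4 of the 5 panels the 3 arrays at 8 h of RA lie above the 3 controls of their genotype.

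The genes whose log2 values followed those of Bim most closely over the 18 arrays were Cenpm (Pearson r = 0.87), a centromere protein gene, Oaz2 (0.79), an ornithine decarboxylase antizyme gene, Tmem60 (0.77), Med13l (0.77), a Mediator kinase module gene, and Ube2s (0.76), a ubiquitin-conjugating enzyme gene. These were the 5 highest of all genes and are a description only, since all genes share the same arrays. Within the family, Mcl1 had r = 0.37 and Bad 0.29 with Bim, while Pmaip1 had -0.30 and Bbc3 -0.41.

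After 8 h of RA, limma called 0 of the 8 tested members in either genotype, where 0.904% of all genes were called in wild type and 0.957% in the knockout. At an unadjusted p under 0.05 the count was 1 of 8 in wild type, against 7.86% of all genes, and 2 of 8 in the knockout, against 8.66%. Without overlap between groups were Bcl2l11 alone in wild type (10.5% of all genes in either direction) and Bcl2l11 and Mcl1 in the knockout (12.9%). The median difference of the members was 0.12 in wild type and 0.27 in the knockout, beside 0.00 for all genes tested in both.

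Mcl1, an anti-apoptotic gene on chromosome 3 whose protein turns over quickly, differed between probe sets. On the brightest, wild type read 9846, 11815 and 8386 units in controls and 11172, 11561 and 10146 at 8 h of RA, which overlap, with a difference of 0.14 ± 0.11 (limma adjusted p = 0.937). On another, the one with the largest knockout difference at 72 h, the wild-type controls read 4051, 4186 and 3510 units and the RA arrays 5930, 5780 and 5222, all higher, with a difference of 0.53 ± 0.11 and an adjusted p of 0.0593 over the 22757 probe sets tested. All 6 Mcl1 probe sets were above 0 at 8 h in both genotypes, from 0.14 to 0.55 in wild type and from 0.28 to 0.52 in the knockout. The brightest probe set gave the smallest of these values in each genotype.

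By 72 h in the knockout, the same probe set read 6587 and 6483 units against 4478, 3525 and 3561 in controls, and 3 of the 6 Mcl1 probe sets were called higher, against 10.2% of all probe sets. All 6 were without overlap there, against 26.5%. Apart from the probe set just given, those called have names that end in _x_at, and the brightest probe set, at 0.11, was not called. In wild type 1 of the 6 was called at 72 h, against 11.1% of all probe sets called higher, and 4 were without overlap, against 25.7%. For the difference between the genotypes' 72 h responses, 0 of the 6 were called. Pairwise r between the Mcl1 probe sets ran from 0.18 to 0.99 over 15 pairs, so they did not all report the same pattern, and those whose names end in _x_at can also bind related transcripts.

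Bcl2l1, the anti-apoptotic gene that encodes BCL-XL, did not pass the threshold in any comparison. Wild type read 727, 576 and 987 units in controls, 1074, 693 and 877 at 8 h and 1127 and 797 at 72 h, which overlap throughout. The knockout read 587, 538 and 655 units in controls, 902, 635 and 833 at 8 h and 696 and 703 at 72 h. At 72 h the knockout arrays were just above their controls on this brightest probe set, with a difference of 0.24 ± 0.24. The other probe sets that reached 100 units gave -0.15 and -0.13 there, with overlapping groups. The knockout arrays at 72 h were below both wild-type arrays, with a knockout minus wild-type difference of -0.44 ± 0.26 (limma adjusted p = 0.463). All 3 Bcl2l1 probe sets that reached 100 units were below 0 in that comparison of genotypes.

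Bcl2, the founding anti-apoptotic member, stayed near or under the floor of 50 units below which values were not ordered. Of its 5 probe sets, the brightest read 2.69 to 65.0 units and lay at the floor on 16 of 18 arrays, and the other 4 lay at the floor on all 18. No comparison of Bcl2 was made.

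The effector Bak1 read 640, 569 and 1079 units in wild-type controls and 783, 701 and 884 at 8 h. In the knockout it read 513, 611 and 766 units in controls and 1622, 605 and 952 at 8 h, a difference of 0.65 ± 0.30 (limma adjusted p = 0.560) carried largely by 1 array. Bid, the BH3-only gene whose protein caspase-8 cleaves, stayed between 1573 and 2632 units on all arrays on its brightest probe set. Its RA differences there ran from -0.06 to 0.10, with SEs of 0.18 to 0.20. Over its 3 probe sets they ran from -0.18 to 0.43, with SEs up to 0.31, and both ends were in wild type at 72 h. In that comparison 1 of the 3 was higher without overlap, against 25.7% of all probe sets, and 0 were called.

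**Figure D2:**
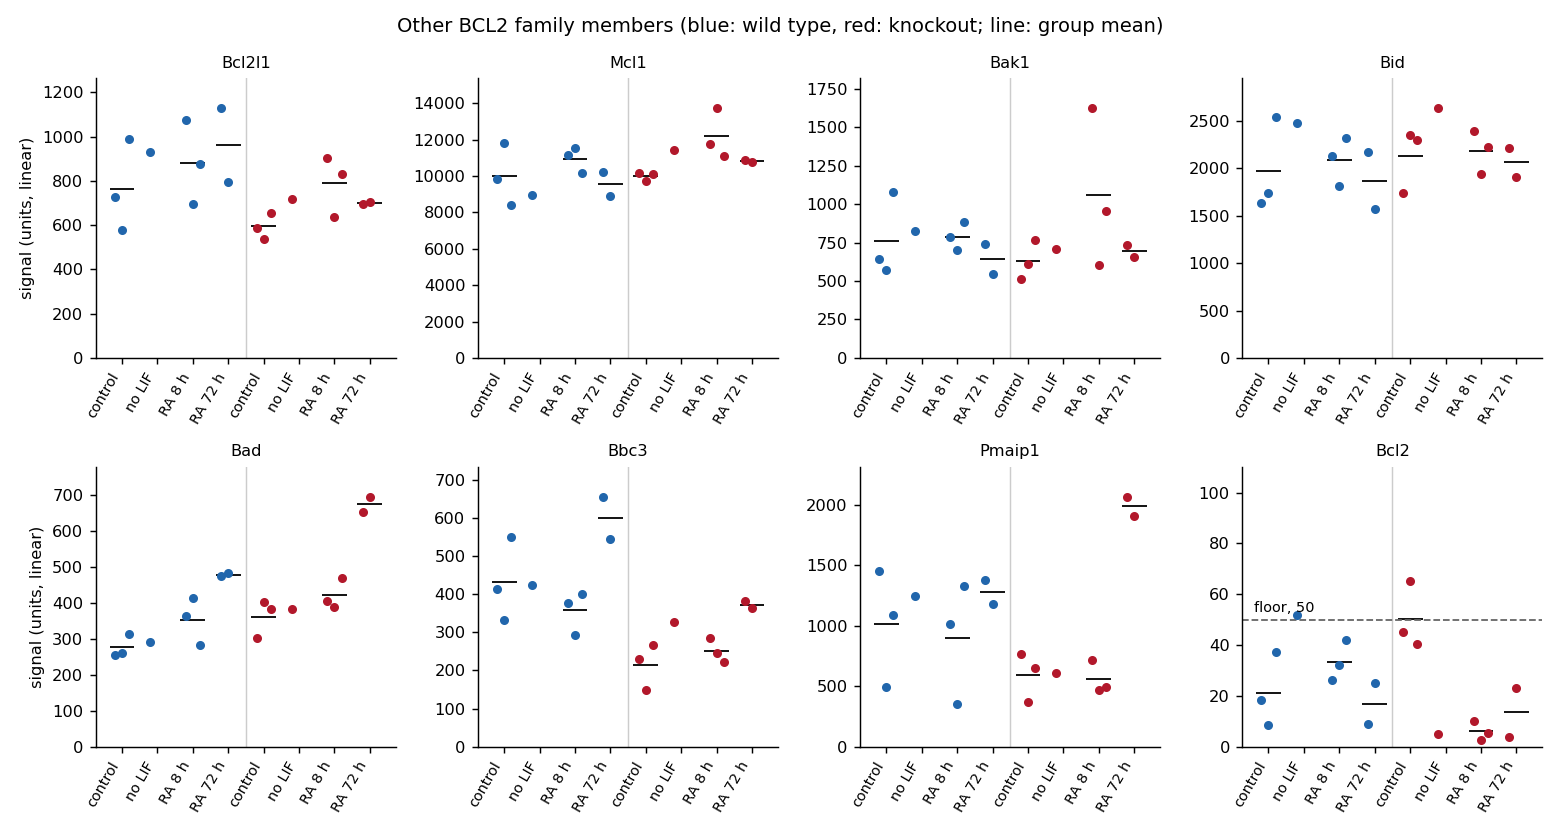
Signal in linear units (y axis, starting at 0) of the 8 measured members other than Bim, by group (x axis), through the brightest probe set of each, with 1 point per array and a line at the group mean (wild type blue, knockout red). The 2 knockout arrays at 72 h of RA stand highest for Bad and for Pmaip1, and nearly all Bcl2 points lie under the dashed floor of 50 units.

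After 72 h, Bad rose in both genotypes, and Bbc3 and Pmaip1 rose in the knockout. Bad, Bbc3 and Pmaip1 are 3 of the 5 BH3-only genes, all 5 of which are among the 8 members tested. The anti-apoptotic Mcl1 was not called in the knockout on its brightest probe set (0.11 ± 0.13, limma adjusted p = 0.582), but with the mean of its probe sets it was (0.56, adjusted p = 0.00747). On the brightest probe sets 1 of 8 members was called in wild type, where 24.7% of all genes were called and 16.1% were called higher, and 3 of 8 in the knockout, where 23.0% were called and 14.8% called higher. Groups without overlap numbered 2 of 8 in wild type, against 49.8% of all genes, and 5 of 8 in the knockout, against 52.3%. The members' median difference was 0.29 in wild type and 0.20 in the knockout, beside 0.06 for all genes tested in each.

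Bad encodes a BH3-only protein that is held inactive by phosphorylation when survival signals are present. In wild type it read 254, 261 and 314 units in controls, 363, 415 and 283 at 8 h and 474 and 485 at 72 h. Knockout arrays read 303, 402 and 382 units in controls, 406, 389 and 468 at 8 h and 655 and 695 at 72 h. The 72 h arrays were above every control and every 8 h array of their genotype. Bad rose by 0.80 ± 0.19 at 72 h in wild type, or 1.74-fold (limma adjusted p = 0.00642), and by 0.91 ± 0.19 in the knockout, or 1.88-fold (adjusted p = 0.00303).

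The second Bad probe set gave smaller differences with overlapping groups, 0.30 ± 0.32 in wild type and 0.56 ± 0.32 in the knockout. With the mean of both probe sets the wild-type difference was 0.55 and its adjusted p 0.0692, and without replicate 2 of the wild-type 72 h arrays its adjusted p was 0.0540. The knockout rise of Bad held in all 15 alternatives run.

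Pmaip1, which encodes NOXA, a BH3-only protein that binds MCL1 and is a known p53 target, was the member with the largest rise. In the knockout it read 763, 370 and 649 units in controls, 717, 467 and 494 at 8 h and 2064 and 1910 at 72 h. Both 72 h arrays were above all other arrays of the series. The rise was 1.81 ± 0.49, or 3.49-fold (limma adjusted p = 0.0157). In wild type it read 1454, 493 and 1089 units in controls, 1015, 355 and 1332 at 8 h and 1380 and 1182 at 72 h. These groups overlap, and the 72 h difference was 0.47 ± 0.49 (adjusted p = 0.534).

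The difference between the genotypes' 72 h responses of Pmaip1 was 1.33 ± 0.70 and did not pass the threshold (limma adjusted p = 0.9995, 95% interval -0.15 to 2.82). The knockout call was lost without knockout control replicate 2 (adjusted p = 0.0641) and without either knockout 72 h array (adjusted p = 0.0971 and 0.0809). It was also lost with no filter on dim genes (adjusted p = 0.0686).

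Bbc3 encodes PUMA, a BH3-only protein that binds all main anti-apoptotic members and is a known target of p53 and FOXO3. In wild type it read 414, 333 and 550 units in controls, 378, 293 and 402 at 8 h and 655 and 545 at 72 h. In the knockout it read 231, 149 and 266 units in controls, 285, 245 and 221 at 8 h and 382 and 364 at 72 h. In the knockout the 72 h arrays were above all controls, and in wild type 1 of them was just under the highest control. Bbc3 rose by 0.83 ± 0.26 in the knockout at 72 h, or 1.78-fold (limma adjusted p = 0.0299), and its wild-type difference was 0.50 ± 0.26 (adjusted p = 0.177).

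The knockout rise of Bbc3 was lost with the LIF labels exchanged (0.66, adjusted p = 0.105), with quantile normalization (0.0749), with no filter on dim genes (0.0681), with only the arrays compared in the fit (0.0621), and without knockout control replicate 2 (0.59, adjusted p = 0.117) or either 72 h array (0.145 and 0.115).

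Markers of another cell type moved with the 72 h groups. The summed signal of 8 extraembryonic endoderm markers was 8923 to 12060 units in wild type at 72 h, against 1854 to 4110 in controls, and 8096 to 8551 units in the knockout, against 940 to 1383 in controls, with Afp at the floor on all arrays. In each genotype 7 of the 8 reached 100 units at 72 h, where 6 did so in wild-type controls and 3 in knockout controls. Lamb1 gave the largest part of the wild-type sums, at 4066 and 7012 units at 72 h against 1348 to 2569 in controls. The 6 fibroblast feeder markers summed to 1009 to 1503 units in wild type at 72 h and to 436 to 851 units in the other wild-type groups, with Postn at the floor on all arrays, and to 531 to 734 units in the knockout at 72 h, against 615 to 686 in its controls. These sums hold markers that went opposite ways. Thy1 read 329 to 717 units in wild-type controls and 78.5 and 99.8 at 72 h, and 452 to 611 units in knockout controls and 111 and 143 at 72 h. Pdgfrb was higher at 72 h, at 400 and 682 units in wild type against 28.5 to 57.6, and at 305 and 504 units in the knockout against 31.6 to 71.4. The collagens Col1a1, Col1a2 and Col3a1 read 302, 432 and 253 units on wild-type 72 h replicate 2 and lay under 100 units on the other 72 h arrays. Their part in the results at 72 h was not tested, and in these bulk samples fewer cells of a type and less RNA per cell cannot be told apart.

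**Figure D3:**
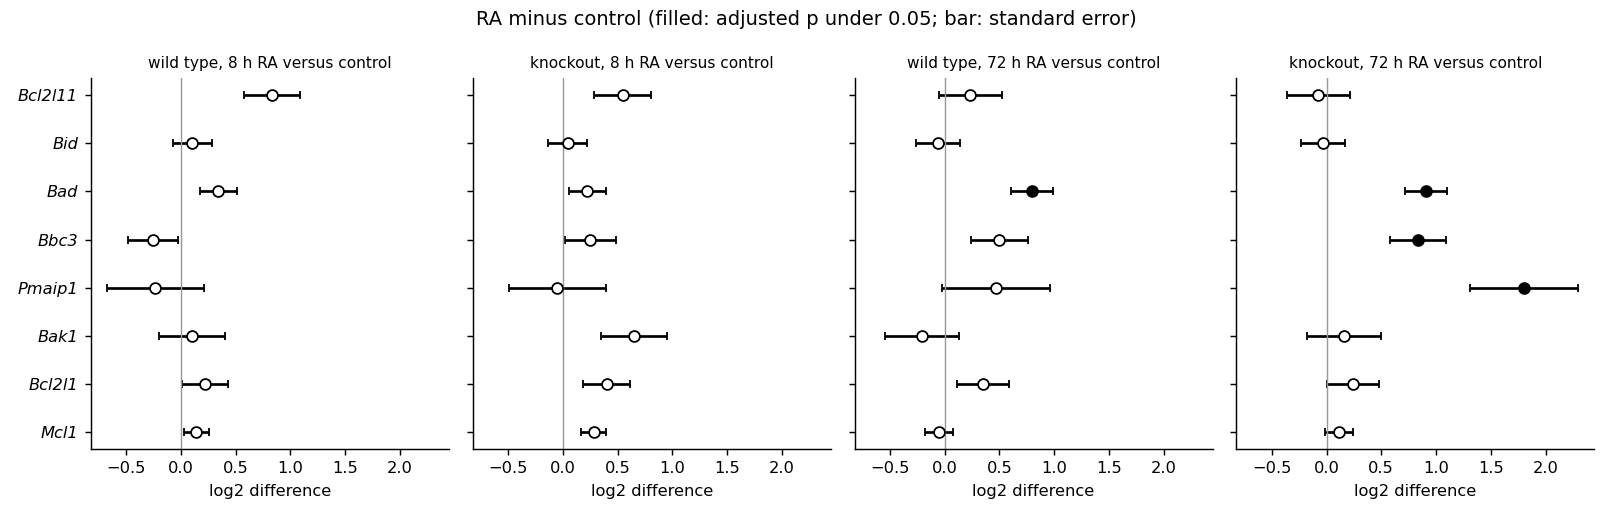
Log2 difference of RA against control (x axis) for the 8 tested members (rows) at 8 h and 72 h in each genotype, with bars of 1 SE and filled points where the limma adjusted p was under 0.05. Filled points appear at 72 h only, for Bad in wild type and for Bad, Bbc3 and Pmaip1 in the knockout.

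Between genotypes, Bbc3 was the member that differed. It was lower in knockout than in wild-type controls on all 3 arrays, 215 ± 60.1 against 432 ± 110 units (SD, n = 3 each), a difference of -1.02 ± 0.23, or 0.49-fold (limma adjusted p = 0.0197). This was 1 of 8 members called, where 4.64% of all genes were called and 2.81% were called lower. Without overlap were Bbc3 and Bcl2l11, in opposite directions, against 19.6% of all genes.

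Bbc3 was also below wild type on every array at 8 h of RA, with a difference of -0.51 ± 0.23 (limma adjusted p = 0.275), and at 72 h, with -0.68 ± 0.28 (adjusted p = 0.236), and neither passed the threshold. The control call was lost with the LIF labels exchanged (-0.86, adjusted p = 0.0697), without both replicate 1 controls (-1.10, 0.0888), without wild-type control replicate 1 (-1.03, 0.0562), wild-type control replicate 3 (-0.83, 0.0733) or knockout control replicate 2 (-0.77, 0.0976), with only the arrays compared in the fit (0.112) and with no filter on dim genes (0.0590). The direction was the same in all 16 alternatives. Extraembryonic endoderm markers were also lower in the knockout controls, at 940 to 1383 units in sum against 1854 to 4110, and their part in this difference was not tested.

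At 8 h of RA, limma called 0 of 8 members between genotypes, where 4.61% of all genes were called, and 1 of 8 had an unadjusted p under 0.05, against 16.9% of all genes. Only Bbc3 was without overlap, against 20.4%. At 72 h the count was again 0 of 8, where 4.07% were called, with 2 of 8 at an unadjusted p under 0.05 beside 1821 of the 11388 genes, and 5 of 8 without overlap against 48.7%. Those 5 were Bcl2l1 and Bbc3, lower in the knockout, and Mcl1, Bad and Pmaip1, higher. Pmaip1 was 0.64 ± 0.54 higher in the knockout at 72 h (limma adjusted p = 0.654), and it was called when the fit held only the arrays compared (adjusted p = 0.0423).

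Tests of the difference between the genotypes' responses called 0 of 8 members at 8 h and 0 of 8 at 72 h in limma, and 0 of 8 had an unadjusted p under 0.05 in either. Over all genes they called 0% and 0.342%, with 1.85% and 5.66% at an unadjusted p under 0.05. In the fit of arrays without LIF against controls limma called 0 of 8 members and 0% of 10476 genes. At an unadjusted p under 0.05 it was 1 of 8 members, Bcl2l11, against 2.72%. That fit rests on 1 array without LIF per genotype. The Bcl2l11 difference was 0.29 with the LIF labels exchanged and -0.41 with the mean of its probe sets, so the count is no result about Bim.

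Bad lies on chromosome 19, as does Cyp26a1, and genes of that chromosome were in the median higher in the knockout. The other 413 tested genes of chromosome 19 had a median knockout minus wild-type difference of 0.47 in controls, 0.49 at 8 h and 0.48 at 72 h of RA, with 86.9%, 89.3% and 86.7% of them above 0. Bad was 0.39 ± 0.17, 0.27 ± 0.17 and 0.49 ± 0.21 higher in the knockout in the same comparisons (limma adjusted p = 0.269, 0.502 and 0.247). Of the chromosome 19 genes, 40.2%, 25.2% and 51.3% lay below Bad, so it sat within that distribution.

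**Figure D4:**
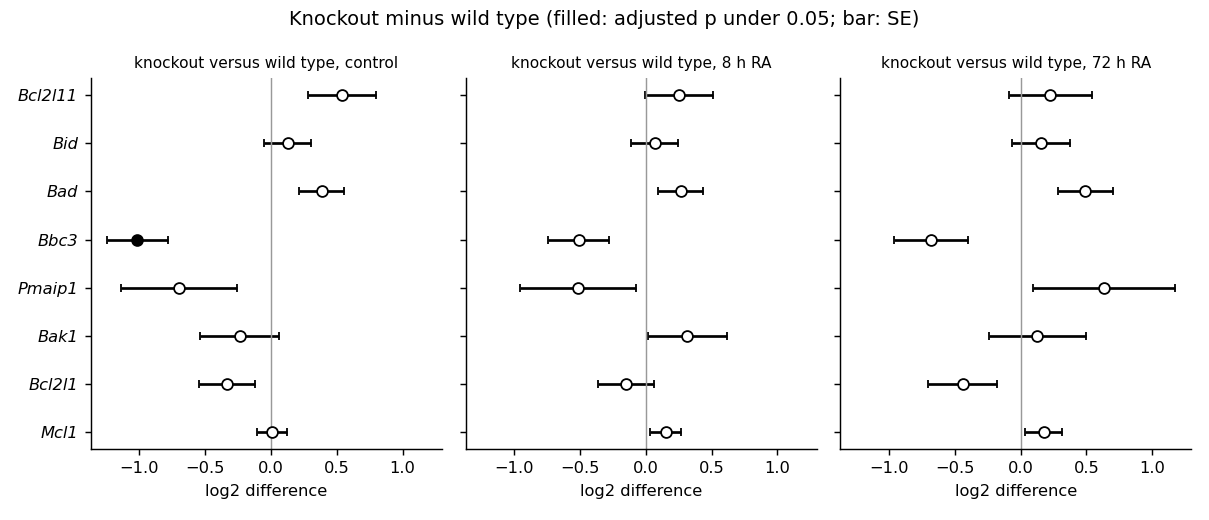
Log2 difference of knockout minus wild type (x axis) for the 8 tested members (rows) in controls, at 8 h and at 72 h of RA, with bars of 1 SE and a filled point where the limma adjusted p was under 0.05. Bbc3 in controls, at -1.02, is the filled point.

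Further genes of the apoptosis pathway were taken from lists that hold 52 genes, of which 39 were tested. In wild type 1 rose and 0 fell at 8 h, or 2.56% against 0.904% of all genes, and 7 rose and 1 fell at 72 h, or 20.5% against 24.7%. In the knockout limma called 0 at 8 h, against 0.957%, with 4 of 39 (10.3%) at an unadjusted p under 0.05 beside 8.66% of all genes. At 72 h in the knockout 8 rose and 1 fell, or 23.1% against 23.0%. Between genotypes the listed genes called made up 5.13% in controls, 7.69% at 8 h and 2.56% at 72 h, against 4.64%, 4.61% and 4.07% of all genes. At 72 h and between genotypes these shares lie near those of all genes and are no result about the pathway. The median difference of the 39 genes at 72 h was 0.12 in wild type and 0.19 in the knockout, beside the 0.06 of all genes.

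Foxo3, which encodes a transcription factor that activates Bcl2l11 and Bbc3, was the gene called at 8 h. In wild type it read 389, 444 and 555 units in controls, 864, 755 and 754 at 8 h and 1151 and 1045 at 72 h. Knockout arrays read 544, 523 and 426 units in controls, 494, 682 and 585 at 8 h and 1231 and 1138 at 72 h. The wild-type arrays separated at 8 h and again at 72 h, while the knockout arrays overlapped at 8 h and separated at 72 h.

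Foxo3 rose by 0.79 ± 0.16 at 8 h in wild type (limma adjusted p = 0.0262), but this call was lost in 10 of 16 alternatives, with an adjusted p of 0.251 and a difference of 0.53 when the LIF labels were exchanged and 0.132 without both replicate 1 controls. Leaving out single wild-type arrays also ended it, with adjusted p-values of 0.140 and 0.104 without control replicates 1 and 2 and of 0.132, 0.0672 and 0.0824 without the 8 h replicates 1, 2 and 3. The knockout difference was 0.23 ± 0.16 (adjusted p = 0.828), and the difference between the responses, -0.55 ± 0.23, did not pass (adjusted p = 1). At 72 h Foxo3 rose by 1.26 ± 0.18 in wild type (adjusted p = 0.000129) and by 1.26 ± 0.18 in the knockout (adjusted p = 0.000148), and both calls held in all 15 alternatives.

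Among the apoptosome and caspase genes, 3 of 6 tested rose in wild type at 72 h and 2 of 6 in the knockout, where 16.1% and 14.8% of all genes were called higher, and 0 fell. Apaf1, the scaffold of the apoptosome, read 559 to 636 units in wild-type controls and 1541 and 1525 at 72 h, and 478 to 607 and 1040 and 1084 units in the knockout. It rose by 1.35 ± 0.14 in wild type (limma adjusted p = 8.04e-06) and by 1.02 ± 0.14 in the knockout (adjusted p = 0.000127). Casp6, an executioner caspase, rose by 1.66 ± 0.23 (adjusted p = 7.92e-05) and 1.72 ± 0.23 (adjusted p = 6.88e-05). Casp8, the initiator of the death receptor route, rose by 1.10 ± 0.27 in wild type (adjusted p = 0.00765), a call lost without replicate 1 of the 72 h arrays (0.0719). Apaf1 and Casp6 were called in all 15 alternatives in each genotype, but with the mean of its probe sets the Casp6 difference was 0.83 in wild type and 0.86 in the knockout.

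Of the other effector and BH3-only genes, 4 were tested, and 1 rose and 1 fell at 72 h in each genotype. Over all genes 16.1% were called higher and 8.64% lower in wild type, and 14.8% and 8.26% in the knockout. Bik, a BH3-only gene, rose by 1.23 ± 0.31 in wild type (limma adjusted p = 0.00913) and 1.60 ± 0.31 in the knockout (adjusted p = 0.00168), from controls of 46.4 to 72.4 units, some of them at the floor, to 99.2 to 210 units. With a floor of 100 units these differences were 0.48 and 0.65, and both were still called. Without replicate 1 of the wild-type 72 h arrays the wild-type call was lost (adjusted p = 0.137). Bok, an effector relative of BAX and BAK, fell by 0.63 ± 0.16 in wild type (adjusted p = 0.00941) and by 0.63 ± 0.16 in the knockout (adjusted p = 0.00982). Both were lost without replicate 1 of the 72 h arrays (0.0935 and 0.104), and the wild-type one also with only the arrays compared (0.0700).

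Of the 11 tested regulators and partners of BIM, MCL1 and PUMA, 3 rose at 72 h in wild type and 5 in the knockout, beside 16.1% and 14.8% of all genes called higher, and 0 fell. Jun, the AP-1 subunit, read 85.1 to 164 units in wild-type controls and 545 and 537 at 72 h, and 29.0 to 99.1 and 217 and 256 units in the knockout. It rose by 2.27 ± 0.40 in wild type (limma adjusted p = 0.000721) and by 1.91 ± 0.40 in the knockout (adjusted p = 0.00292), where some controls were at the floor and a floor of 100 units gave 1.24. Ddit3, which encodes the stress factor CHOP, rose by 0.85 ± 0.26 in wild type (adjusted p = 0.0259), and this was lost in 8 of 15 alternatives, among them without wild-type control replicate 1 (0.0880) or 2 (0.0630) and without 72 h replicate 2 (0.302). With the mean of its probe sets the wild-type value was 0.30. In the knockout the further calls were Ddit3 and Mdm2, the p53 ubiquitin ligase gene, which lie outside the naming rule and are named after their values were seen. Ddit3 rose there by 0.79 ± 0.26 (adjusted p = 0.0390), lost in 8 of 15 alternatives, among them with the mean of its probe sets (0.38) and without control replicate 1 (0.0788) or 2 (0.130) or 72 h replicate 1 (0.0713) or 2 (0.268). Mdm2 rose by 0.72 ± 0.21 (adjusted p = 0.0230), lost in 3 of 15 alternatives, with no filter on dim genes (0.0704) and without control replicate 2 (0.0929) or 72 h replicate 2 (0.216). Dynll2, a gene of the dynein light chains, which tether BIM and its relative BMF, rose by 0.66 ± 0.15 in the knockout (adjusted p = 0.00459).

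Dynll2 was also lower in the knockout than in wild type, with 3006, 2488 and 2097 units in knockout and 5503, 4750 and 3974 in wild-type controls. The groups did not overlap in controls, at 8 h or at 72 h of RA. The 72 h arrays read 4065 and 3837 units in the knockout and 5624 and 5420 in wild type. Dynll2 was not called between genotypes at 72 h, where 48.7% of all genes were without overlap. It differed by -0.91 ± 0.13 in controls (limma adjusted p = 0.00167) and by -0.90 ± 0.13 at 8 h (adjusted p = 0.00133). Both calls held in all 16 alternatives. Apaf1 was lower in the knockout at 8 h, at -0.64 ± 0.13 (adjusted p = 0.0108), lost without knockout replicate 1 at 8 h (0.0512) and with only the arrays compared (0.0633).

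Bnip3, an atypical BCL2 relative of mitophagy that hypoxia induces, was higher in the knockout in all 3 comparisons. Wild-type controls read 983, 572 and 336 units, knockout controls 3379, 1605 and 1123, and the 72 h arrays 353 and 541 against 2445 and 2708. The differences were 1.67 ± 0.41 in controls (limma adjusted p = 0.0293), 1.61 ± 0.41 at 8 h (adjusted p = 0.0358) and 2.56 ± 0.50 at 72 h (adjusted p = 0.00819). They lost their call in 6 of 16, 8 of 16 and 3 of 14 alternatives. In controls these include leaving out knockout replicate 1 (1.23, adjusted p = 0.120) or 2 (0.0699) and wild-type replicate 2 (0.0736) or 3 (0.105). At 8 h the call ended without any 1 of the knockout arrays (0.0671, 0.119 and 0.0869 for replicates 1 to 3) and without wild-type replicate 1 (0.0780) or 3 (0.142). At 72 h it ended without wild-type replicate 1 (0.09998) or either knockout array (0.0583 and 0.0741). Of the other anti-apoptotic relatives, the released mitochondrial factors with the IAPs, and the death receptor genes, limma called 0 of the 14 tested in any of the 4 RA comparisons, where at 72 h 24.7% of all genes were called in wild type and 23.0% in the knockout. At an unadjusted p under 0.05 the counts were 1 of 14 at 8 h and 1 of 14 at 72 h in wild type, against 7.86% and 36.5% of all genes, and 0 and 1 of 14 in the knockout, against 8.66% and 34.2%.

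**Figure D5:**
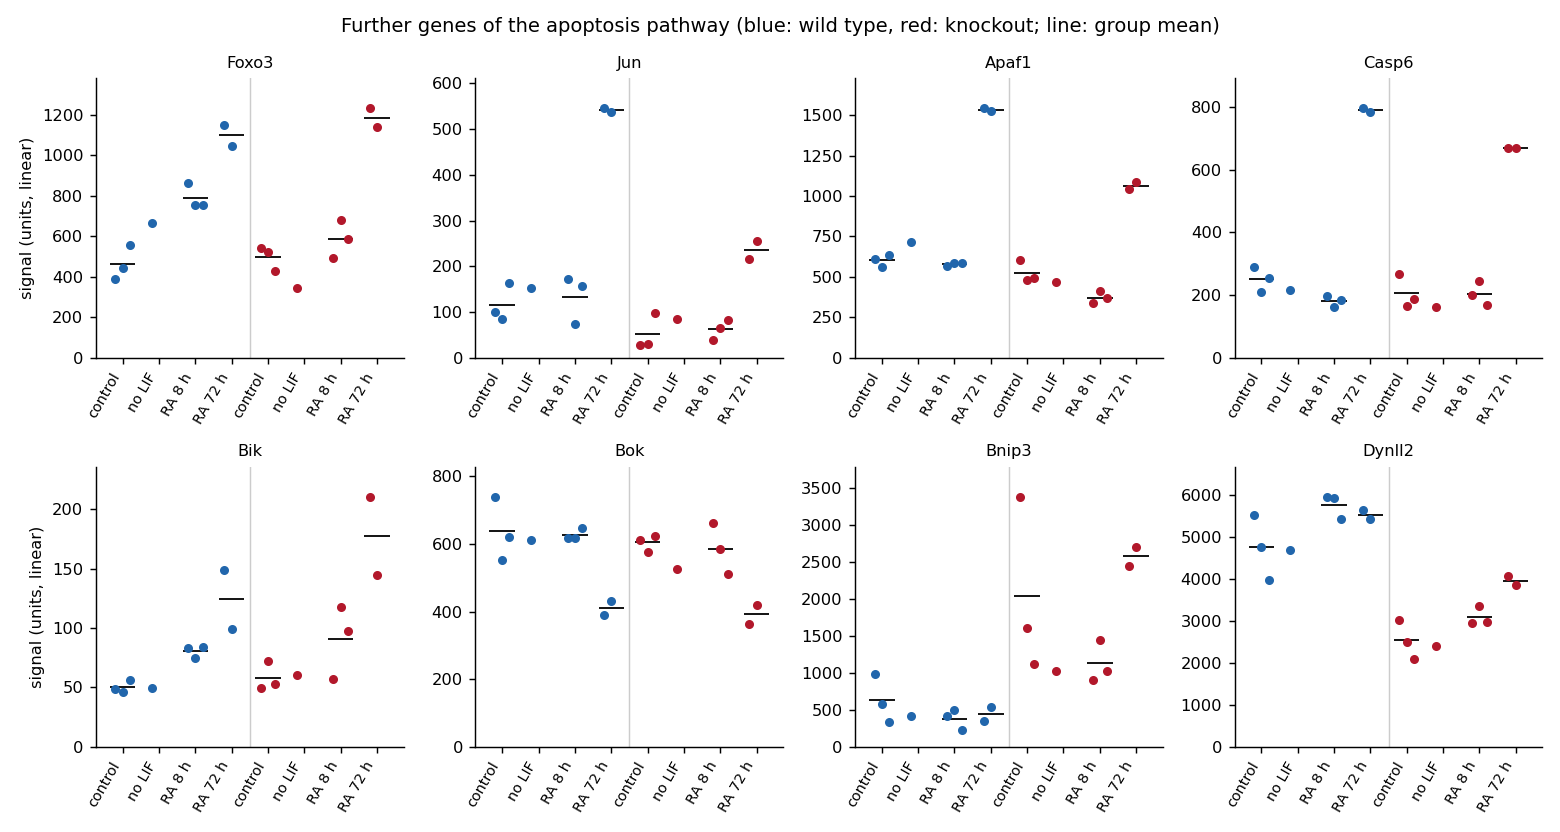
Signal in linear units (y axis, starting at 0) of 8 further genes of the apoptosis pathway by group (x axis), with 1 point per array and a line at the group mean (wild type blue, knockout red). The 72 h arrays of Apaf1, Casp6 and Jun lie above all other arrays of their genotype, and Dynll2 is lower in knockout than in wild-type controls.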

How the data were processed

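Total RNA of 18 samples of mouse AB1 ES cells was hybridised to 1 single-colour 3' expression array each. The authors deposited linear signal intensity per probe set; per the submitters' processing notes the values are MAS5 intensity, with version and background settings not given in the sources used here. Every deposited array had a trimmed mean of 500 units with 2% cut at each end. Of 45101 probe sets, the platform annotation gives 1 symbol to 34958, several to 932 and lists 9211 not at all; only the first kind names a gene.

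Arrays were rescaled to a trimmed mean of 500 units, values under 50 set to 50, and log2 taken. The probe set with the highest mean log2 stood for a gene. Genes reaching 100 units on at least 2 arrays entered limma 3.58.1 under R 4.3.3 (lmFit, eBayes with trend; 16 arrays, 6 groups, 10 residual degrees of freedom) with Benjamini-Hochberg adjustment over all of them at 0.05; probe sets were fitted the same way, a step added after seeing the data. The fit of arrays without LIF held 8 arrays, 10476 genes and 5 residual degrees of freedom. The scripts were tested on simulated data.

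The members and gene lists were chosen with earlier results of these data known. Named were all members, up to 3 called genes per list and comparison with the smallest adjusted p, and the 5 genes most like Bcl2l11. Groups came from the sample titles. Same-numbered arrays (numbers 2 and 3 in the titles) deviated together from their group means in all 12 pairs (r from 0.11 to 0.50), so a fit with the number as a block was an alternative, with arrays without a number sharing a level. Other alternatives changed the floor, the normalization, the filter, the probe set rule, the LIF labels, the arrays in the fit, and left out each array. Promoter windows are RefSeq's, GRCm38.p6. Matched by symbol, they gave 15 windows for 9 members.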

Additional observations from a re-analysis of the deposited data

How the results depend on the processing

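The count of members called was 0 under every setting run for both 8 h RA comparisons, for knockout against wild type at 8 h, for the differences between responses and for the arrays without LIF. In wild type at 72 h it fell from 1 to 0 with the mean of all probe sets. In the knockout at 72 h it was 1, not 3, with no filter on dim genes, and 4 with the mean of all probe sets, where Mcl1 was the added member (0.56, adjusted p = 0.00747). The count there also fell, by the loss of Bbc3 alone, with quantile normalization, with the LIF labels exchanged and with only the arrays compared. In knockout against wild-type controls it was 0, not 1, with no filter on dim genes, with the LIF labels exchanged, without both control arrays of replicate 1 and with only the arrays compared. At 72 h between genotypes it was 1, not 0, with only the arrays compared. Leaving out each array in turn gave 0 to 1 in wild type at 72 h, 1 to 3 in the knockout at 72 h and 0 to 1 between genotypes in controls. Where that leaves a 72 h group with 1 array, the lone array is assumed to vary like the other groups. Over the 76 alternatives of the 5 member calls, each array left out in turn included, 56 kept the call, 20 lost it and none turned its direction; 2 alternatives gained a call, for Mcl1 as above and for Pmaip1 between genotypes at 72 h. When the replicate number was a block, member counts were the same in every comparison (0 and 0 at 8 h, 1 and 3 at 72 h, 1 in controls), while all genes called went from 103 to 174 in wild type and 109 to 190 in the knockout at 8 h, and from 463 to 741 between genotypes at 72 h. Signal near the floor limits Bcl2, Bik and the knockout controls of Jun, and 2 arrays per group limit the 72 h results.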
